A study of Mus musculus with 16 samples.

Results

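The genes described here, measured as RNA in cultures of mouse preadipocytes, encode fibroblast growth factors (FGFs). They were chosen by symbol: Fgf1, Fgf2, Fgf5, Fgf7, Fgf9, Fgf10, Fgf13, Fgf18 and Fgf21. All 9 were found among the 29060 genes of the deposited table, as 52 transcript entries. By the level summed over a gene's entries 8 passed the filter on low values, and Fgf9 did not. The cells were primary preadipocytes, the fat cell precursors of the stromal-vascular fraction, grown from inguinal white or interscapular brown fat of C57BL/6N UCP1 reporter mice, and each depot received Fgf8b or control. The 4 groups (white and brown cells, each with control or Fgf8b) held 4 libraries each, and all 16 libraries came from the reporter strain. The sources used here do not give the dose, the treatment time, the age of the mice or what the control received. The design text speaks of 3 independent cultures and no label ties a library to a culture, so p-values measure the spread between libraries, which may in part be technical. Libraries are named by the number in their label.

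FGFs are small signalling proteins. Most are secreted, are held near their source by heparan sulfate, and bind receptor tyrosine kinases (FGFRs) that switch on the RAS and ERK cascade. Fgf7 and Fgf10 are made by mesenchymal cells and bind the epithelial splice form of FGFR2. In mice Fgf10 is needed for white fat to develop, and Fgf21 is an endocrine FGF of liver and fat that needs the co-receptor beta-Klotho. Fgf13 differs from the others, since it is an intracellular homologous factor that binds voltage-gated sodium channels and is not a secreted ligand, so the word ligand covers it by family name alone.

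Promoter sequences are shown for 4 ligands whose levels moved in different ways under Fgf8b: Fgf2 rose in both depots, Fgf18 fell in both, Fgf10 rose in brown cells, and Fgf21 fell in brown cells. Each line gives the 250 bases before the annotated start site, 5′ to 3′ on the gene's strand, from RefSeq (GRCm38.p6), with motif matches in capitals.
Fgf2 promoter, chr3:37348403-37348652, plus strand: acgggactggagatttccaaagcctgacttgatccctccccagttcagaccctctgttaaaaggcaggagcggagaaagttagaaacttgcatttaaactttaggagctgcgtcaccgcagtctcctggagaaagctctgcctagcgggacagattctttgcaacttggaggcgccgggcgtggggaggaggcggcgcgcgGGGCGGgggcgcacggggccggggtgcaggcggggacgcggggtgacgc
Fgf10 promoter, chr13:118714449-118714698, plus strand: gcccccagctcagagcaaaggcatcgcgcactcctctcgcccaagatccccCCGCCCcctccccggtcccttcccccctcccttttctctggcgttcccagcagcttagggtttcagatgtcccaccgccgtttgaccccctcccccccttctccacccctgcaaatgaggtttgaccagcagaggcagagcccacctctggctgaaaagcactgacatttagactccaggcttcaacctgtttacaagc
Fgf18 promoter, chr11:33147401-33147650, minus strand: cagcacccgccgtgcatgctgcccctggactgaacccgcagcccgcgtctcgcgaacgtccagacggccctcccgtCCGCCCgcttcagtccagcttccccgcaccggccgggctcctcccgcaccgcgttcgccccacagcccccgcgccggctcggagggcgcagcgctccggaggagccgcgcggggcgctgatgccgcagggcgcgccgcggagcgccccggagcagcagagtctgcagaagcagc
Fgf21 promoter, chr7:45615491-45615740, minus strand: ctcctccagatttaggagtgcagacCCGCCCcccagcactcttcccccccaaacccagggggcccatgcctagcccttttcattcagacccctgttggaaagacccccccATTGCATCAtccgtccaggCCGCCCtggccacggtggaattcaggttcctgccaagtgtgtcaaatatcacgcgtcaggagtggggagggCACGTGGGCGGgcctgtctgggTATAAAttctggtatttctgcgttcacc
The motifs were searched on both strands in windows of 250 bases before to 50 after the start, available for 8 of the 9 ligands as 11 start sites and for 32851 promoters in all. The capitals in Fgf2, Fgf10 and Fgf18 mark a GC box (GGGCGG or its complement), which 35.7% of all promoters hold. The Fgf21 capitals mark, in order, a GC box, the amino acid response element (AARE, TGATGCAAT, here on the opposite strand, at -140 to -132 from the start), another GC box, an E-box (CACGTG) that shares 1 base with the GC box after it, and a TATA box (TATAAA, at -28 to -23). The AARE is the element through which the stress factor ATF4 acts on several amino acid response genes, and 0.192% of all promoters held these letters. The E-box was found in 7.15% and the TATAAA letters in 13.6% of promoters. Fgf5 and Fgf13 held TATAAA as well, but after the start, at 34 to 39 and 37 to 42, and not before it as in Fgf21. The AP-1 motif (TGANTCA, 7.81% of promoters) was found in Fgf13 alone among these ligands, and neither the ETS motif CCGGAAG (8.86%) nor the cyclic AMP response element TGACGTCA (1.79%) was found in any of them. The GC content of the 250 bases was 62.4% for Fgf2, 61.2% for Fgf10, 77.2% for Fgf18 and 59.6% for Fgf21, against a median of 52.4% over all promoters. These matches are descriptions of the windows and not binding sites.

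The table gives RPKM, reads per kilobase of transcript and per M reads, for each transcript entry. Levels are the RPKM of 1 representative RefSeq entry per gene, which is per length and allows genes to be set side by side. Differences are log2 fold changes of the RPKM summed over a gene's entries plus 0.5, which understates changes of low genes. They were tested with limma over all 16 libraries, with Benjamini-Hochberg adjustment over the 15222 genes tested, and called at an adjusted p under 0.05. The libraries held 13.7 to 20.1 M reads by the steps of their values. Brown control 15 stood apart: in a chi-square test of reads, scaled by its degrees of freedom, it scored 8.29 to 9.08 against the other brown controls, and other pairs within a group 1.37 to 2.90, so values without it are given where they matter. Depot runs with library number (1 to 8 white, 9 to 16 brown), and of 299 repeated accessions 145 held unequal values in the white columns and 0 in the brown columns, so a difference between depots and a difference in how the columns were made cannot be told apart. The preadipocyte and fibroblast markers were all detected, 12 of 12 in every group, with Pdgfra at 94.3 RPKM in white and 67.5 RPKM in brown controls. Of the adipocyte markers, Lep and Retn were at 0 in all 4 groups and Adipoq was at or below 0.0424 RPKM in each group mean. Fabp4, a fatty acid binding protein of fat cells and their precursors, was present, at 10.3 RPKM in white controls, 5.82 in white Fgf8b, 18.1 in brown controls and 12.1 in brown Fgf8b libraries.

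Fgf7, a growth factor that mesenchymal cells supply to epithelia, was the most abundant of the ligands in every group. Its level was 70.4 ± 1.49 RPKM (SD, n = 4) in white controls, 53.4 ± 1.52 in white Fgf8b, 73.8 ± 6.43 in brown controls and 61.2 ± 2.63 in brown Fgf8b libraries. The next ligand in the order never passed 11.2 RPKM as a group mean. The summed level of the 9 genes was 87.5 to 89.7 RPKM in white controls, 74.1 to 78.6 in white Fgf8b, 85.4 to 99.6 in brown controls and 80.7 to 89.6 in brown Fgf8b libraries. Fgf7 made up 79.2% of that sum in white controls and 82.2% in brown controls. With Fgf8b its share was 69.3% in white and 71.4% in brown cells, and in both depots the shares with and without Fgf8b did not overlap.

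**Figure D1:**
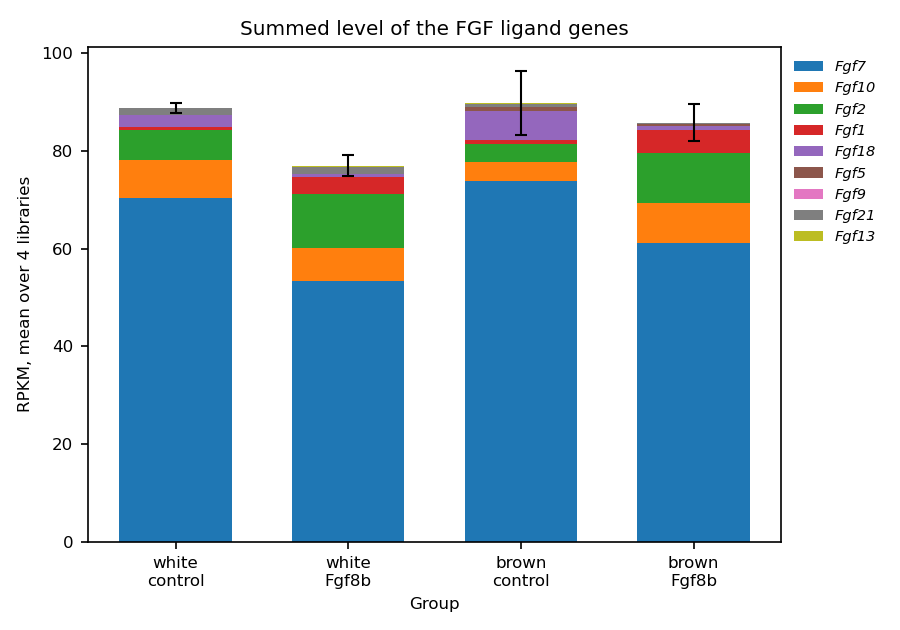
Stacked bars show the mean RPKM of the 9 ligand genes over 4 libraries in each group, and the black bar the SD of the sum over libraries. Fgf7 fills most of every bar, with 79.2% of the sum in white controls and 71.4% in brown Fgf8b libraries.

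The order below Fgf7 differed between groups. In white controls Fgf10 (7.70 RPKM) was followed by Fgf2 (6.24), Fgf18 (2.34), Fgf21 (1.32) and Fgf1 (0.544), each neighbour with library values that did not overlap. In brown controls Fgf18 came second with 6.05 RPKM, ahead of Fgf10 (3.92) and Fgf2 (3.62), whose values overlapped. Fgf1 (0.821), Fgf5 (0.725) and Fgf21 (0.590) followed there, and neighbours among these overlapped as well. With Fgf8b both depots had the same order at the top, namely Fgf7, Fgf2, Fgf10 and Fgf1, with no overlap between neighbours. Fgf13 stayed between 0.119 and 0.267 RPKM and Fgf9 at or below 0.0227 RPKM in all group means.

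**Figure D2:**
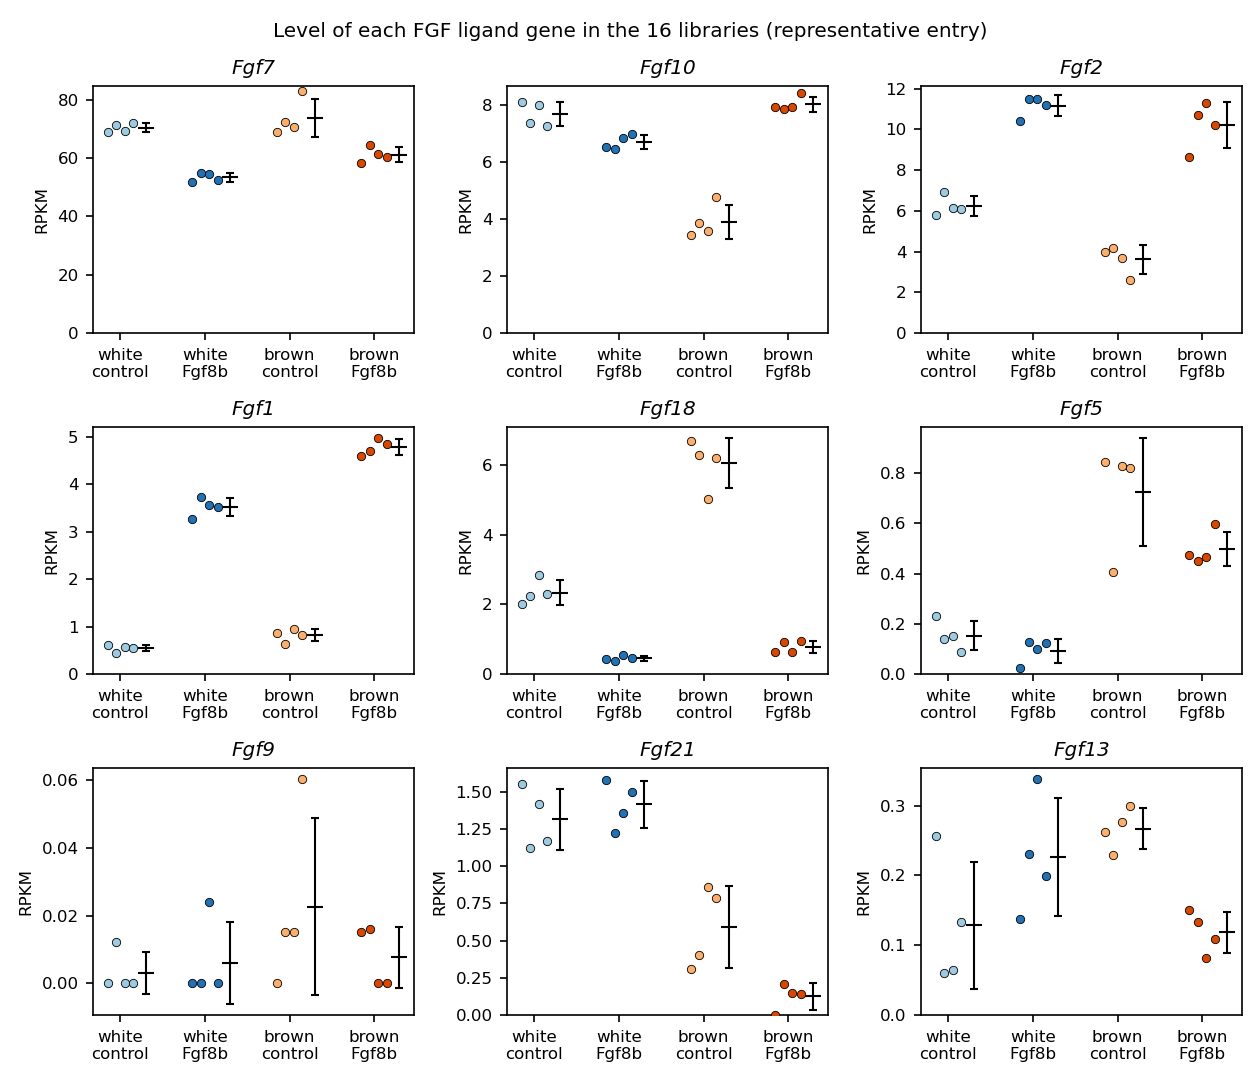
Each panel plots the RPKM of 1 ligand (representative entry) in the 16 libraries, with points for libraries and a bar for the mean ± SD of each group, on a scale of its own. Fgf1 lies between 3.27 and 4.98 RPKM in the Fgf8b libraries and between 0.453 and 0.947 in the controls, and Fgf10 has its lowest values in brown controls.

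The series title names the question of how brown and white preadipocytes differ when given Fgf8b or control. In white preadipocytes given Fgf8b, Fgf1 rose 6.65-fold and Fgf2 1.83-fold, and Fgf18 was 4.05-fold lower. Smaller declines were called for Fgf7 and Fgf10, and the sum over Fgf13 entries rose. Of the 8 ligands tested 6 were called, beside 65.7% of all genes tested. Of the 6, 3 were higher and 3 lower, beside 36.3% and 29.5% of genes, and 3 changed at least 2-fold, beside 11.7% of all genes. The library values of the groups were apart for 5 of the 9 ligands, beside 63.8% of genes tested. The 9 include Fgf9, which was not tested and whose values overlapped in every comparison. The median log2 fold change was -0.07 over the 8 ligands and 0.04 over all genes. In brown preadipocytes Fgf1 rose 5.71-fold, Fgf2 2.90-fold and Fgf10 2.09-fold, while Fgf18 was 6.58-fold, Fgf21 2.20-fold and Fgf7 1.21-fold lower. There 6 of 8 were called, beside 71.4% of all genes. Of these 3 were higher and 3 lower, beside 36.7% and 34.7%, and 5 changed at least 2-fold, beside 14.3%. The groups were apart for 7 of 9 ligands in brown cells, beside 62.0% of genes tested, and the median was -0.25 over the ligands and 0.01 over all genes. Among all genes called, 5521 were higher and 4486 lower in white cells, and 5582 and 5282 in brown cells. In bulk RNA, fewer cells of a type and less RNA per cell cannot be told apart.

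**Figure D3:**
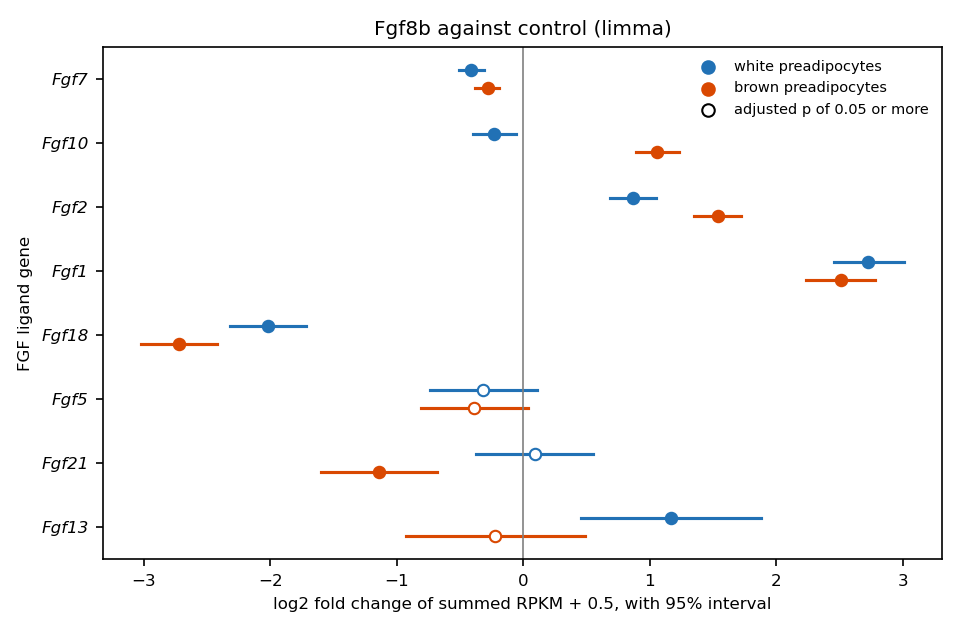
Points are log2 fold changes of Fgf8b against control for the 8 ligands tested, in white (blue) and brown (orange) preadipocytes, with 95% intervals, and open points did not pass the test. Fgf1, Fgf2, Fgf7 and Fgf18 moved the same way in both depots, while Fgf10 lies at -0.23 in white and 1.06 in brown cells.

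Fgf1, a broad-range FGF that binds all FGF receptors and lacks a classical signal peptide, showed the largest rise among these genes in both depots. The white controls had 0.453, 0.551, 0.566 and 0.605 RPKM, which were 35 to 41 reads of the entry. The white Fgf8b libraries had 3.27, 3.53, 3.56 and 3.74 RPKM, or 223 to 280 reads. The treated values lay far above the controls with no overlap. In brown cells the controls had 0.632, 0.828, 0.875 and 0.947 RPKM and the Fgf8b libraries 4.60, 4.70, 4.84 and 4.98 RPKM, again with no overlap. The log2 fold change was 2.73 (SE 0.129, adjusted p = 9.53e-13) in white and 2.51 (SE 0.129, adjusted p = 2.56e-12) in brown cells. Fgf1 was higher in brown than in white cells under control by 0.68 on the log2 scale (adjusted p = 0.000429) and under Fgf8b by 0.46 (adjusted p = 0.00614). The responses themselves differed by -0.22 (95% interval -0.61 to 0.16, adjusted p = 0.379), so no difference between depots was called. All 8 entries of Fgf1 rose in mean RPKM, 6.12- to 15.9-fold in white and 4.95- to 9.28-fold in brown cells.

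Fgf2, a mitogen of fibroblasts and preadipocytes that also lacks a classical signal peptide, rose in both depots and more in brown cells. White controls had 5.80, 6.11, 6.13 and 6.91 RPKM, and white Fgf8b libraries 10.4, 11.2, 11.5 and 11.5 RPKM. Brown controls had 2.60, 3.70, 3.98 and 4.19 RPKM, the lowest in library 15, and brown Fgf8b libraries 8.63, 10.2, 10.7 and 11.3 RPKM. Brown controls lay below all white controls, whereas the treated values of the depots overlapped. The log2 fold change was 0.87 (SE 0.0871, adjusted p = 5.32e-08) in white and 1.54 (SE 0.0871, adjusted p = 1.06e-11) in brown cells. The difference of the responses was 0.67 (SE 0.123, adjusted p = 0.00036), and 0.61 without brown control 15. Under control Fgf2 was 1.74-fold lower in brown cells, a log2 difference of -0.80 (adjusted p = 7.8e-07). Under Fgf8b the difference was -0.13 (95% interval -0.32 to 0.05, adjusted p = 0.218) and was not called.

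The Fgf2 locus is read on both strands, since Nudt6, a Nudix hydrolase gene known as the Fgf2 antisense gene, overlaps it, and the library kit did not mark strand. Nudt6 rose too, by 0.86 (adjusted p = 1.54e-09) in white and 1.18 (adjusted p = 1.03e-11) in brown cells. In GENCODE, 1 Fgf2 entry of 1240 bases shares 242 bases with Nudt6 exons. The 4 Ensembl entries whose length read back from the table equals the GENCODE length and that share no exon with Nudt6 rose 1.82- to 1.84-fold in white and 3.04- to 3.06-fold in brown cells. Fgf2 entries share 183 to 215 bases with Gm43439, a gene on the same strand, whose reads cannot be told apart from theirs.

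Fgf18, a ligand of the Fgf8 subfamily known for its part in skeletal and lung growth, fell in both depots. White controls had 2.0, 2.23, 2.29 and 2.83 RPKM and white Fgf8b libraries 0.386, 0.423, 0.456 and 0.549 RPKM, the latter from 8 to 12 reads. Brown controls had 5.02, 6.19, 6.30 and 6.70 RPKM and brown Fgf8b libraries 0.631, 0.633, 0.917 and 0.940 RPKM, from 10 to 15 reads. Within each depot the treated values lay below every control, and every brown value lay above every white value of the same treatment. The log2 fold change was -2.02 (SE 0.142, adjusted p = 3.25e-10) in white and -2.72 (SE 0.142, adjusted p = 3.04e-12) in brown cells. Brown cells had more Fgf18 than white cells by 1.33 under control (adjusted p = 5.83e-07) and by 0.63 under Fgf8b (adjusted p = 0.00109) on the log2 scale. The responses differed by -0.70 (SE 0.200, adjusted p = 0.0109), but with limma voom on the reads read back the difference was -0.62 with an adjusted p = 0.151. All 4 entries fell in both depots, to 0.187 to 0.377 of the control mean in white and 0.129 to 0.218 in brown cells.

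Fgf10, the second ligand of the epithelial FGFR2 form and a factor of mouse white fat development, rose in brown cells and was slightly lower in white cells given Fgf8b. White controls had 7.27, 7.40, 8.0 and 8.12 RPKM and white Fgf8b libraries 6.47, 6.53, 6.85 and 7.0 RPKM. Brown controls had 3.45, 3.59, 3.86 and 4.78 RPKM, the highest in library 15, and brown Fgf8b libraries 7.88, 7.93, 7.94 and 8.43 RPKM. The treated brown cells thus reached the range of the white controls, and the brown controls lay below all other groups. In brown cells the log2 fold change was 1.06 (SE 0.0816, adjusted p = 9.7e-10), and 1.15 without brown control 15. In white cells it was -0.23 (SE 0.0816, adjusted p = 0.0196); that call was lost without white control 1 (-0.21, adjusted p = 0.0522) or without white control 5 (-0.19, adjusted p = 0.0712). The responses differed by 1.29 (SE 0.115, adjusted p = 1.25e-07). Brown cells had less Fgf10 than white cells under control, by a log2 difference of -0.98 (adjusted p = 2.04e-08), and more under Fgf8b, by 0.31 (adjusted p = 0.00394). Of its 8 entries all rose in brown cells, 2.02- to 4.19-fold, and 7 had a lower mean in white cells. In GENCODE, Fgf10 entries share 54 to 69 bases with Gm16263 on the opposite strand, whose reads cannot be told apart.

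Fgf7 declined in both depots. White controls had 69.0, 69.4, 71.3 and 72.1 RPKM and white Fgf8b libraries 51.8, 52.4, 54.4 and 54.9 RPKM. Brown controls had 69.0, 70.7, 72.4 and 83.2 RPKM, the highest in library 15, and brown Fgf8b libraries 58.3, 60.5, 61.6 and 64.6 RPKM. The treated values lay below the controls in each depot, and these were the most precisely counted of the ligands, with 2262 to 3768 reads per library. The log2 fold change was -0.41 (SE 0.0452, adjusted p = 1.96e-07) in white and -0.28 (SE 0.0452, adjusted p = 1.94e-05) in brown cells. Under control the depots differed by 0.05 (95% interval -0.04 to 0.15, adjusted p = 0.394), and under Fgf8b Fgf7 was higher in brown cells by 0.18 (adjusted p = 0.00232). The difference of the responses, 0.13 (95% interval -0.01 to 0.26, adjusted p = 0.129), was not called, and without brown control 15 it was 0.18 with an adjusted p = 0.00768. Fam227b, a neighbour of Fgf7, had a mean of at most 0.00977 RPKM in any group.

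Fgf21, the endocrine member of the set, was detected in white cells and fell in brown cells given Fgf8b. White controls had 1.12, 1.17, 1.42 and 1.55 RPKM (20 to 25 reads) and white Fgf8b libraries 1.22, 1.36, 1.5 and 1.58 RPKM (22 to 26 reads). These ranges overlapped, and the log2 fold change was 0.09 (95% interval -0.37 to 0.55, adjusted p = 0.727). Brown controls had 0.307, 0.401, 0.789 and 0.861 RPKM (4 to 13 reads) and brown Fgf8b libraries 0, 0.144, 0.145 and 0.210 RPKM (0 to 3 reads). Every treated brown library lay below every brown control, which in turn lay below every white library. The log2 fold change in brown cells was -1.14 (SE 0.219, adjusted p = 0.000135), and -1.99 with a pseudocount of 0.1 or -2.22 with limma voom on the reads, since so few reads make its size depend on the scale. The log2 difference of brown from white cells was -0.95 under control (adjusted p = 0.00227) and -2.18 under Fgf8b (adjusted p = 1.52e-07). The responses differed by -1.23 (SE 0.309, adjusted p = 0.00454). The summed RPKM of Fgf21 reached the filter value in 12 libraries, namely all but the brown Fgf8b libraries. In comparisons with that group it was thus tested through groups where it is higher. Its p-values there are not separate support for the low level in that group, and its place in those counts follows in part from the filter. Klb, which encodes beta-Klotho, had a mean of at most 0.0205 RPKM in any group.

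Fgf5, known as the factor that ends the growth phase of mouse hair, had a low level that was higher in brown than in white cells. White controls had 0.0883, 0.141, 0.151 and 0.230 RPKM (4 to 9 reads) and white Fgf8b libraries 0.023, 0.0993, 0.124 and 0.126 RPKM (1 to 6 reads). Brown controls had 0.405, 0.822, 0.828 and 0.844 RPKM, the lowest in library 11, and brown Fgf8b libraries 0.451, 0.466, 0.475 and 0.599 RPKM. All brown values lay above all white values, by a log2 difference of 1.46 under control (SE 0.201, adjusted p = 1.37e-05) and 1.39 under Fgf8b (SE 0.201, adjusted p = 1.28e-05). The summed RPKM of Fgf5 reached the filter value in 9 libraries, namely all brown libraries and white control 1. It was thus tested through the depot where it is higher, and its depot p-values are not separate support for that difference. The effect of Fgf8b was not called in white (-0.32, 95% interval -0.74 to 0.11, adjusted p = 0.177) or brown cells (-0.39, 95% interval -0.81 to 0.04, adjusted p = 0.0937). The brown value rested on library 11, without which it was -0.59 with an adjusted p = 0.00881. It was also called with the representative entry (-0.28, adjusted p = 0.039) and with upper-quartile factors (-0.46, adjusted p = 0.0488). The responses differed by -0.07 (95% interval -0.67 to 0.53, adjusted p = 0.878).

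Fgf13, the intracellular homologous factor, was counted from 3 to 17 reads per library in its representative entry. White controls had 0.0608, 0.0649, 0.133 and 0.256 RPKM and white Fgf8b libraries 0.138, 0.199, 0.231 and 0.339 RPKM, which overlapped. Brown controls had 0.229, 0.263, 0.277 and 0.300 RPKM and brown Fgf8b libraries 0.0824, 0.109, 0.133 and 0.150 RPKM, which did not overlap. The sum over its 10 entries rose in white cells by 1.17 on the log2 scale (SE 0.338, adjusted p = 0.00536), while the representative entry gave 0.21 (adjusted p = 0.0642). In brown cells the sum gave -0.22 (95% interval -0.93 to 0.49, adjusted p = 0.58), the representative entry -0.31 (adjusted p = 0.00879) and limma voom on the reads -1.10 (adjusted p = 0.0122). Of the 7 entries with a ratio in brown cells, 2 rose and 5 fell in mean RPKM, so the direction depended on the entry. The responses differed by -1.38 (adjusted p = 0.0313), a call that was lost without white control 3 (adjusted p = 0.0726), white control 5 (0.0633), white Fgf8b 4 (0.0695) or 6 (0.0637), brown control 11 (0.0615), or brown Fgf8b 12 (0.067) or 16 (0.0686). Between depots the sum gave 0.81 under control (95% interval 0.10 to 1.52, adjusted p = 0.0728) and -0.57 under Fgf8b (95% interval -1.28 to 0.14, adjusted p = 0.17). The value under control was called with the representative entry (0.30, adjusted p = 0.0245), with limma voom (1.26, adjusted p = 0.00883) and without white control 1 (1.11, adjusted p = 0.0156).

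Fgf9, a ligand known for its part in mouse testis development, was near the limit of detection. It had 0 to 4 reads per library, with 1 read over the white controls, 2 over the white Fgf8b, 6 over the brown control and 2 over the brown Fgf8b libraries. It was therefore not tested with the others, and a difference was not detectable at this depth. With no filter its adjusted p was 0.819 for Fgf8b in white, 0.219 for Fgf8b in brown, 0.252 between control depots and 0.961 between treated depots.

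**Figure D4:**
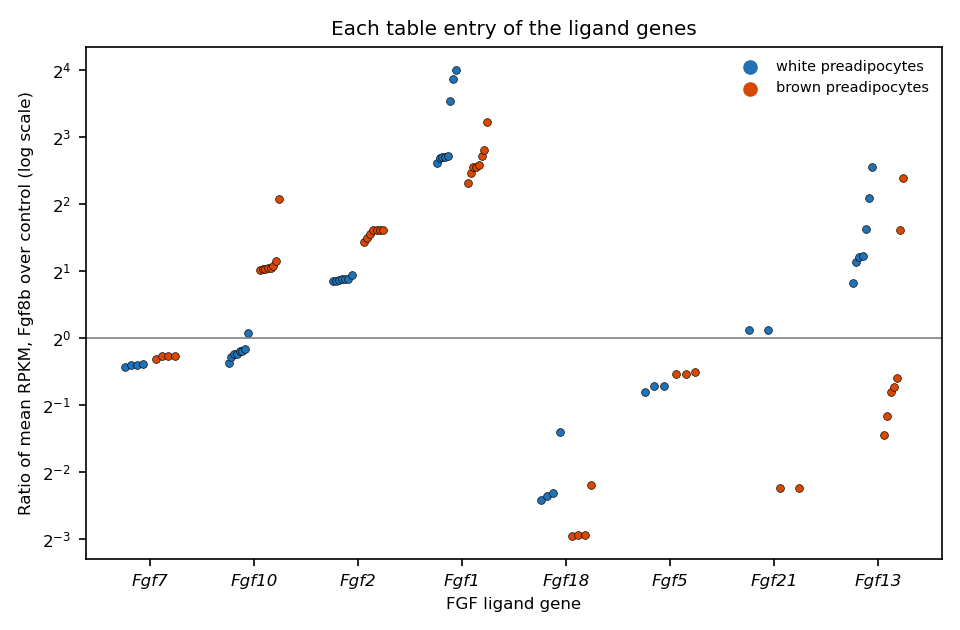
Each point is 1 transcript entry of a ligand and shows its mean RPKM with Fgf8b over that with control on a log scale, in white (blue) and brown (orange) preadipocytes, for entries above 0 in both groups. Entries share reads and some Fgf13 entries rest on few of them. All Fgf1 and Fgf2 entries lie above 1 and all Fgf18 and Fgf7 entries below 1 in both depots, Fgf10 entries lie from 2.02 to 4.19 in brown cells, and Fgf13 entries spread from 0.367 to 5.20 in brown cells.

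Between the depots under control, brown cells had more Fgf18, Fgf5 and Fgf1 and less Fgf10, Fgf2 and Fgf21 than white cells. That was 6 of 8 ligands called, beside 33.9% of all genes. Of these 3 were higher and 3 lower, beside 18.1% and 15.9%, and 2 of them, Fgf18 and Fgf5, at least 2-fold, beside 3.36%. Under Fgf8b 5 ligands, Fgf1, Fgf5, Fgf7, Fgf10 and Fgf18, were higher and Fgf21 was lower in brown cells, so that 6 of 8 were called beside 51.6% of all genes, with 26.9% of genes higher and 24.7% lower. Of these Fgf5 and Fgf21 differed at least 2-fold, beside 4.31%. Fgf5 passed the filter through its brown libraries and white control 1, so its place in both sets of counts follows in part from the filter. No brown Fgf8b library reached the filter value for Fgf21, so the same holds for Fgf21 in the counts under Fgf8b. The library values of the depots were apart for 6 of 9 ligands under control, beside 32.4% of genes tested, and for 6 of 9 under Fgf8b, beside 50.4%. Fgf9, which was not tested, is among the 9. The median log2 difference over the ligands was 0.37 under control and 0.25 under Fgf8b, and 0 and 0.01 over all genes. Both depot comparisons share libraries with the treatment comparisons above.

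**Figure D5:**
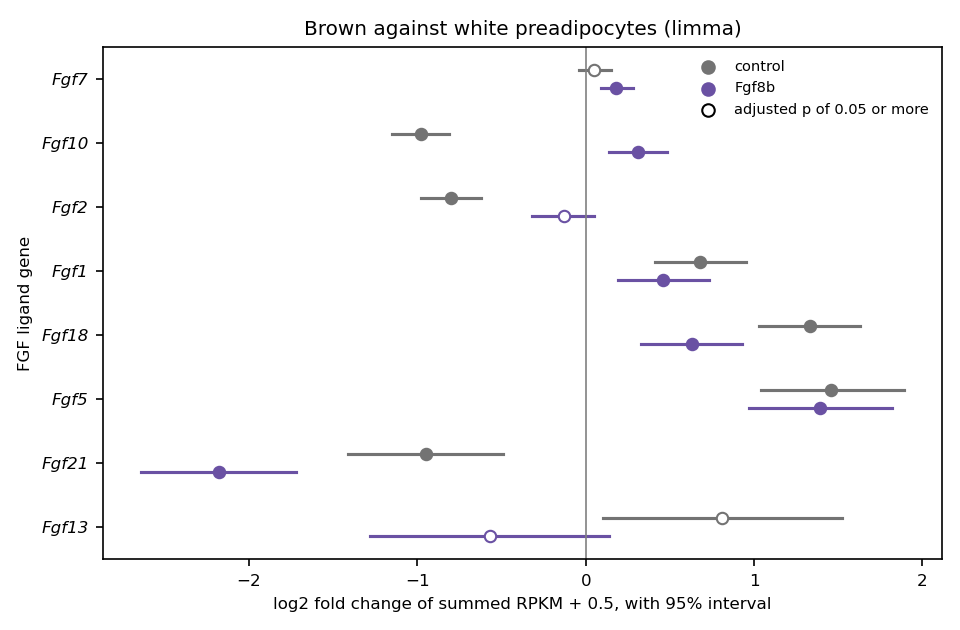
Points are log2 differences of brown against white preadipocytes for the 8 ligands tested, under control (grey) and Fgf8b (purple), with 95% intervals, and open points did not pass the test. Fgf10 lies at -0.98 under control and 0.31 under Fgf8b, and Fgf21 moves from -0.95 to -2.18.

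The test of the response difference, brown minus white, called 5 of 8 ligands, beside 34.9% of all genes. Fgf10 and Fgf2 had the higher response in brown cells, and Fgf13, Fgf21 and Fgf18 the lower one, beside 17.1% of genes higher and 17.8% lower. Of these Fgf10, Fgf13 and Fgf21 differed at least 2-fold, beside 3.97%. The median was -0.15 over the ligands and -0.01 over all genes.

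Other genes of the FGF pathway were described from lists. Of the 13 other FGF ligands, 3 were tested, and their summed level was 0.232 to 1.15 RPKM per library. Of these Fgf11, an intracellular homologous factor like Fgf13, had 0.523 RPKM in white controls and 0.225 with Fgf8b, and 0.574 and 0.171 in brown cells. It was the 1 of the 3 called, lower, in each depot, beside 65.7% of all genes called in white and 71.4% in brown cells. Fgf8, the gene of the protein added, was above 0 in white Fgf8b 2 (0.057 RPKM) and brown control 11 (0.0629 RPKM) and at 0 in the other libraries.

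Of 7 receptors and co-receptors 4 were tested. Fgfr2, the receptor gene whose epithelial form binds Fgf7 and Fgf10, went from 6.73 to 1.48 RPKM in white (log2 fold change -2.18, adjusted p = 1.48e-15) and from 5.10 to 2.30 RPKM in brown cells (-1.15, adjusted p = 1.62e-11). It was the 1 receptor called in white cells. In brown cells Fgfr1 rose by 0.39 (adjusted p = 1.15e-09) and the other 3 of the 4 fell, beside 71.4% of all genes called in brown and 65.7% in white cells. The splice forms of Fgfr2 were not analysed here.

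Of 14 carriers and heparan sulfate enzymes 13 were tested, of which 2 rose and 7 fell in white and 5 rose and 6 fell in brown cells, with a median of -0.18 and 0. Over all genes 65.7% were called in white and 71.4% in brown cells. Sulf2, a sulfatase that trims heparan sulfate outside the cell, went from 52.6 to 6.62 RPKM in white (-2.97, adjusted p = 1.77e-17) and from 55.8 to 13.6 RPKM in brown cells (-2.0, adjusted p = 3.95e-15). Hs6st1, which adds sulfate to heparan sulfate, rose in brown cells from 23.5 to 42.1 RPKM (0.82, adjusted p = 7.7e-12). In white cells its level was 41.9 RPKM with control and 37.0 RPKM with Fgf8b, and the responses differed by 1.01 (adjusted p = 1.71e-09).

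All 17 relay genes were tested, and 9 rose and 6 fell in white and 8 rose and 5 fell in brown cells, with medians of 0.11 and 0.12, beside the same 65.7% and 71.4% of all genes called. Map2k1, the kinase above ERK, rose by 0.87 (adjusted p = 3.01e-15) in white and 0.94 (adjusted p = 7.57e-16) in brown cells. Gab1 fell, with -0.77 (adjusted p = 6.96e-09) in white and -1.01 (adjusted p = 1e-10) in brown cells. Of the 15 feedback genes and targets, all tested, 12 rose and 3 fell in each depot, with medians of 1.38 and 1.69 against 0.04 and 0.01 over all genes. Over all genes 36.3% rose and 29.5% fell in white and 36.7% rose and 34.7% fell in brown cells. Etv4, an ETS factor that FGF signals induce, rose by 2.75 (adjusted p = 3.39e-16) in white and 3.47 (adjusted p = 8.31e-18) in brown cells.

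The representative entries were NM_010197 for Fgf1, NM_008006 for Fgf2, NM_010203 for Fgf5, NM_008008 for Fgf7, NM_013518 for Fgf9, NM_008002 for Fgf10, NM_010200 for Fgf13, NM_008005 for Fgf18 and NM_020013 for Fgf21. The genes most like each ligand were named by Pearson correlation of log2(RPKM + 0.5) over the 16 libraries among 12259 genes, which share the libraries, the treatment and the depots. For Fgf10 these were Rgs2, a regulator of G protein signalling (r = 0.97), Hs6st1 (0.94) and Irf2bp2 (0.93). Rgs2 had 10.3 and 7.05 RPKM in white control and Fgf8b and 3.63 and 10.7 RPKM in brown control and Fgf8b libraries. For Fgf18 they were Nov, a secreted matrix-associated protein, Arf2 and Pdlim5 (0.99 each). Nov went from 87.8 to 7.48 RPKM in white and from 377.0 to 16.4 RPKM in brown cells. For Fgf1 they were Gcnt2, Gcnt4 and Anln (0.99 each), and for Fgf2 Ptpn9 (0.99), Il1rl1 and Fam83f (0.98 each). Il1rl1, the interleukin-33 receptor, went from 48.2 to 251 RPKM in white and from 6.97 to 270.0 RPKM in brown cells. For Fgf7 they were Fam21 (0.98), Epb4,1l2, so spelled in the table, and Impact (0.97 each).

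Markers of other cell types moved with the treatment as well, and their part in the ligand results was not tested. All 8 Schwann cell markers were above 0 in both control groups, and their summed level was 13 to 15.1 RPKM in white controls, 2.78 to 3.69 in white Fgf8b, 17.8 to 20.1 in brown controls and 4.87 to 6.21 in brown Fgf8b libraries, with Foxd3 at 0 in white Fgf8b libraries. All 8 endothelial markers were above 0 in the controls and 7 with Fgf8b, with sums of 11.1 to 12, 2.40 to 2.97, 7.65 to 8.96 and 1.5 to 1.89 RPKM in the same order, and Tie1, Vwf and Cldn5 below 0.1 RPKM in every group. Most of the endothelial sum in the controls was Tek, at 9.29, 0.608, 6.58 and 0.38 RPKM. Cdh5 went the other way, at 1.13, 1.92, 0.571 and 0.844 RPKM. Of 5 endothelial markers tested 1 rose and 3 fell in each depot, beside 65.7% of all genes called in white and 71.4% in brown cells. Leukocyte markers summed to 2.38 to 3.16, 1.79 to 2.37, 3.27 to 5.52 and 1.63 to 2.25 RPKM, with 5, 5, 5 and 6 of 8 above 0 and Cd3e at 0 in every group. Among them Cd68 was higher with Fgf8b, at 0.913, 1.61, 0.593 and 1.10 RPKM. Lyz2 (1.22, 0.0919, 2.96 and 0.171 RPKM) and Csf1r (0.606, 0.289, 0.94 and 0.596 RPKM) were lower. Skeletal muscle markers summed to 5.06 to 7.50, 2.08 to 2.85, 8.54 to 10.6 and 2.28 to 2.70 RPKM, with 3, 3, 6 and 4 of 8 above 0 and Myod1 at 0 in every group. Most of that sum was Acta1, at 5.94, 2.05, 9.29 and 2.28 RPKM. Adipocyte markers summed to 12.1 to 13.2, 11.6 to 13, 19.3 to 21.8 and 15.1 to 18.1 RPKM, with 4, 6, 5 and 3 of 8 above 0, and were mainly Fabp4 and Ucp1, the latter at 2.31, 6.25, 2.41 and 4.45 RPKM. Epithelial markers summed to 0.199 to 0.344, 1.20 to 1.46, 0.183 to 0.338 and 0.545 to 0.667 RPKM, with 5, 6, 4 and 5 of 7 above 0 and Krt14 at 0. Most of that sum with Fgf8b was Krt18, at 0.0572, 1.08, 0 and 0.45 RPKM. Trp63 (0.0629, 0.00934, 0.126 and 0.00361 RPKM) and Cdh1 (0.0455, 0.00325, 0.0685 and 0.0151 RPKM) were lower with Fgf8b. Mesothelial markers summed to 12.6 to 14.3, 16.5 to 18.3, 12.6 to 14.7 and 15 to 18.3 RPKM, with 5, 4, 5 and 5 of 6 above 0 and Lrrn4 at 0, and Krt19 made up 13.3, 10.2, 13.7 and 12.6 RPKM of them. The preadipocyte and fibroblast markers summed to 5810 to 6070, 2930 to 3100, 3920 to 4480 and 1570 to 1650 RPKM in that order. Most of that sum in the controls was Col1a1, Col1a2, Col3a1 and Ly6a, which were lower with Fgf8b in both depots. Thy1 went the other way, at 269, 746, 294 and 555 RPKM. Of the 12 markers, all tested, 5 rose and 7 fell in white cells, beside 36.3% and 29.5% of all genes. In brown cells 2 rose and 9 fell, beside 36.7% and 34.7% of all genes. The sum thus does not stand for each marker.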

How the data were processed

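The authors deposited a table of RPKM values per transcript (168326 entries, 16 value columns, decimal commas); the sources used here name no aligner, counter or genome build. Per the labels, total RNA was taken up in TRIsure, column-purified and made into libraries with the TruSeq kit v2, and CASAVA and bcl2fastq are listed in the submitters' processing notes. The numbers of value columns not used, of cells that were not numeric and of values below 0 were all 0. Entries without a gene symbol (23172) and those with a repeated accession (808) were left out, and RPKM was summed by symbol over the other 144549 entries. Entries share reads, so a sum counts a read once per entry.

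Genes whose summed RPKM reached 0.5 in 4 or more libraries were tested with limma 3.58.1 in R 4.3.3 (mean-variance trend, robust moderation), the branch of the plan for normalized values. Fgf13 passed only through the sum over its 10 entries, since its representative entry was at most 0.339 RPKM in any library. Reads were read back from the steps of the values: of values up to 50 reads, 95.6 to 96.0% were whole within 0.1 read. Lengths read back equalled GENCODE's for 165 of 191 entries. The fit was also run on simulated data with independent libraries, which cannot show how the p-values behave where libraries share a culture. Tables and figures were made in Python 3.11.15 (matplotlib 3.10.9, scipy 1.17.1, pandas 2.3.3, numpy 2.4.6).

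The ligands, lists and alternatives were chosen with earlier results of these data known. Named genes were all 9 ligands, Fgf8, overlapping neighbours, at most the 3 largest called changes per list with a mean of at least 1 RPKM (Fgf11 was named outside this rule, after its values were seen), and the 3 genes most like each ligand of at least 1 RPKM. Fgf10os was not analysed here, and the level of 1 marker gene is not reported here.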

Additional observations from a re-analysis of the deposited data

Results flagged for a closer look

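Dixon's test for a library far from the other 3 of its group was run on 36 groups of ligand levels, and chance marks about 1 in 20. Fgf5 was marked for its lowest brown control (library 11, 0.405 RPKM) and its highest brown Fgf8b library (16, 0.599 RPKM). Fgf10 was marked for its highest brown Fgf8b library (16, 8.43 RPKM). Fgf9 was marked for white control 3 (0.0122 RPKM) and white Fgf8b 6 (0.024 RPKM), which rest on 1 and 2 reads. The other 3 libraries of both groups were at 0, so reads in 1 library alone mark the group and these marks carry no information.

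The response to Fgf8b differed between depots by limma's test of the difference, brown minus white, for 5 of the 8 ligands tested, beside 34.9% of all genes. The log2 differences were 1.29 for Fgf10, 0.67 for Fgf2, -0.70 for Fgf18, -1.23 for Fgf21 and -1.38 for Fgf13. The Fgf18 call was lost with limma voom on the reads (adjusted p = 0.151). The Fgf13 call, from few reads, was lost when any of several single libraries was left out.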

How the results depend on the processing

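No paired analysis was run, because no label ties a library to a culture. Controls have odd and Fgf8b libraries even numbers in each depot, and whether neighbouring numbers share a culture is not given. The counts of genes and of ligands called stayed within 1.5 times the reported ones in all 258 alternative values of them, which included other pseudocounts, filters, scalings, entries and moderation, limma voom on the reads, and leaving out each library. Where 6 of the 8 ligands tested were called, that limit could not be passed upward. Ligands called for Fgf8b in brown cells ran from 6 to 8 over the alternatives. For the response difference they ran from 4 to 6 when single libraries were left out. For single ligands, 1010 alternative values kept direction and side of the threshold, 13 lost the call, 9 gained it and 5 reversed. The reversals were in response differences that were not called: for Fgf5 0.18 with a pseudocount of 0.1 and 0.27 with limma voom, and -0.27 to 0.03 when single libraries were left out, and for Fgf1 0.06 with the representative entry; the cause was not tested. Beside the changes given with each ligand, the Fgf13 response difference lost its call with no filter (adjusted p = 0.0604) and without trend and robust moderation (adjusted p = 0.0521). Taking Fgf2 from entries that share no exon with Nudt6, an alternative chosen after seeing the data, kept each Fgf2 direction and call. Reads limit Fgf9 (0 to 4 per library), Fgf13, Fgf5 and Fgf21, whose fold sizes depend on the scale.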
